A study of Homo sapiens with 6 samples.

Results

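The genes described here are DNA repair and checkpoint genes, grouped by the pathway in which their products act. They were named in a list of 42 genes, and a gene was taken as measured where a probe set carried its current symbol or an older alias. Of the 42, 40 were measured, among 11963 genes in all, and 2 were not analysed here. The 40 comprised 11 genes of homologous recombination, 6 of the Fanconi anaemia pathway, 5 of end joining, 3 of mismatch repair, 5 of base excision and single-strand break repair, 3 of nucleotide excision repair and 7 of break sensing and checkpoint signalling. The rule uses no measured value to choose the genes, but takes for each the probe set that was brightest over all 6 arrays. The list was drawn up with earlier results of these data known.

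Cells mend broken DNA either by homologous recombination, which copies an intact sister strand and works after DNA replication, or by end joining, which rejoins the ends directly and works throughout the cell cycle. The Fanconi anaemia proteins open crosslinks between strands at stalled replication forks and hand the break to recombination, while mismatch, base excision and nucleotide excision repair replace wrong or damaged bases on 1 strand. Breaks are detected by the MRE11, RAD50 and NBN complex and by the kinases ATM and ATR, which halt the cell cycle through CHEK1 and CHEK2. Persistent signalling of this kind is known as a feature of fibroblasts that enter senescence after activation of a RAS oncogene.

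Both groups were WI-38 cells, a human diploid fibroblast strain from fetal lung, cultured with 3% oxygen. The 3 RASv12 samples overexpressed RASv12, a constitutively active RAS, and are labelled senescent; the 3 control samples are labelled wild type and growing. The labels mention retroviral transfer but give neither the RAS gene, nor the promoter, nor whether control cells received an empty virus, so infection and RASv12 cannot be told apart. They also give Cy3 for the RASv12 samples and Cy5 for the control samples although these Affymetrix arrays (A array of the U133 set) are read in a single colour, so any dye effect and RASv12 cannot be told apart. Separate cultures are named nowhere in the labels, so the p-values given below cover the spread among 3 samples a group, and that spread may be technical.

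Values are MAS5 intensities as deposited, on a linear scale, and changes are on the scale of log2(intensity + 16) after quantile normalization, RASv12 minus control, with standard errors from limma and n = 3 samples in each group. A fold is the antilog of that change, so the constant of 16 makes it smaller than the ratio of the intensities, most so for weak signals. A fold given as at least a value is instead a bound from deposited intensities, without the constant and before normalization. A gene rose or fell where limma's adjusted p over all 11963 genes was under 0.05. The highest of 27 probe sets for bacterial control transcripts, 27.98, marks the level below which a signal is not above background. HRAS, checked first because the labels name RAS, had 853 ± 123 (SD) in RASv12 cells and 215 ± 23.0 in control cells, a rise of 1.89 ± 0.15 with adjusted p = 0.00014. All 18 of 18 proliferation genes listed for comparison fell, with a median of -2.04 and a summed intensity of 1184 to 1261 in RASv12 cells against 6113 to 6648 in control cells. Of 12 fibroblast markers 10 fell (median -1.83), with sums of 8302 to 9785 in RASv12 cells against 20445 to 23141 in control cells, and the intermediate filament gene VIM was at -0.03. All 5 measured leukocyte markers, 4 of 7 epithelial and 3 of 5 endothelial ones were not above background in either group. Of the others, the endothelial receptor gene TEK fell (mean 26.4 in RASv12 cells against 78.6 in control cells, adjusted p = 0.0023), the keratin gene KRT8 fell (17.0 in RASv12 cells against 30.4 in control cells, adjusted p = 0.045) and KRT18 rose (115 in RASv12 cells against 88.0 in control cells, adjusted p = 0.0498). How far the lower proliferation and fibroblast markers and these other changes bear on the repair genes was not tested, and in these bulk samples fewer cycling cells and less RNA per cell cannot be told apart.

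In RASv12 cells 18 of the 40 repair genes fell (45.0%), 1 rose and 21 did not pass. Among all 11963 genes 15.5% fell and 14.0% rose. Among the 7022 genes above background in control cells, as 38 of the 40 were, 24.5% fell. The falls lay mainly in 2 pathways: 9 of 11 recombination genes (81.8%) and 5 of 6 Fanconi genes (83.3%) fell. Elsewhere 1 of 3 mismatch repair genes fell, 2 of 5 base excision and single-strand break genes, 1 of 7 break sensing and checkpoint genes, 0 of 5 end joining genes and 0 of 3 nucleotide excision genes. For end joining, limma gave an unadjusted p under 0.05 to 2 of the 5, XRCC6 and LIG4, and to 39.3% of all genes; in nucleotide excision it gave one only to ERCC1. The gene that rose was ERCC1 of nucleotide excision repair.

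The median change was -0.94 for the Fanconi genes and -0.89 for the recombination genes, against 0.02 for all genes. With genes not above background in RASv12 cells at their bound, and the 2 not above it in either group left out, these medians were -0.83 and -0.77. Medians with bounds mix deposited intensities for the bounded genes with normalized changes for the others, so they are not minimum falls. The recombination median was RAD54L's own value and moved to -1.64 with a pseudocount of 1 and to -0.58 with 32, and the Fanconi median to -1.56 with a pseudocount of 1. The median was -0.30 for mismatch repair, -0.26 for base excision and single-strand break repair, -0.16 for end joining, -0.02 for break sensing and checkpoint and 0.22 for nucleotide excision. Scaling the arrays to the hybridization controls, which moved the median of all genes to 0.20, turned end joining to 0.18 and sensing and checkpoint to 0.24, and gave -0.086 for mismatch repair, -0.046 for base excision and 0.47 for nucleotide excision. Over all 40 genes the median was -0.36, or -0.28 over 38 genes with the same use of bounds. Relative to the control mean, the recombination median was -0.81, -0.89 and -0.90 in RASv12 samples 1 to 3, and the Fanconi median was -0.56, -0.98 and -1.27. The RASv12 samples thus lay close together for recombination and farther apart for the Fanconi genes. Differences between the pathways were not tested.

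**Figure D1:**
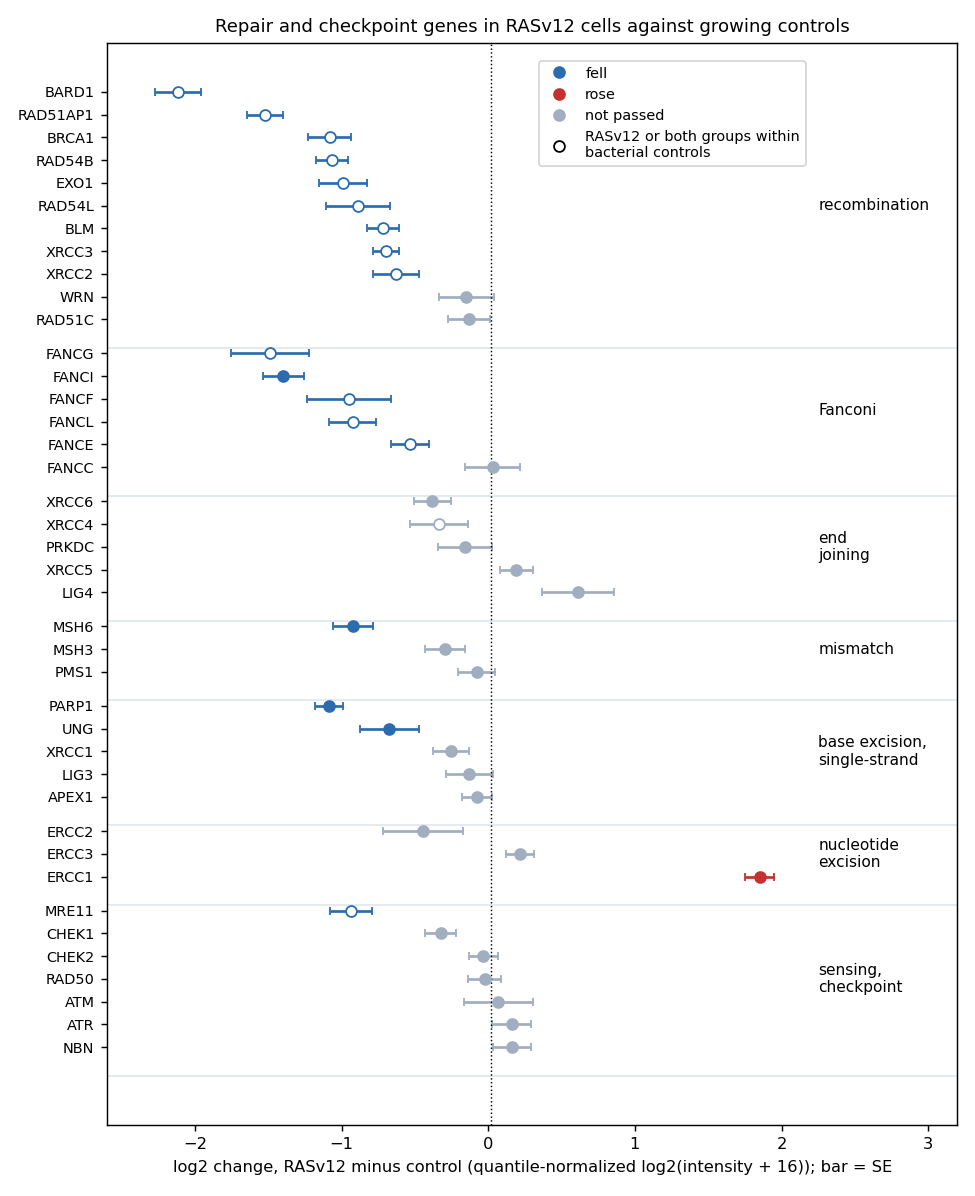
Log2 change (RASv12 minus control, log2 scale, horizontal axis) of the 40 measured repair and checkpoint genes, grouped by pathway down the page; each point is 1 gene, bars are standard errors, colours show whether the gene fell, rose or did not pass, and open points are genes not above the bacterial controls in RASv12 cells or in either group. The 9 recombination and 5 Fanconi genes that fell lie left of 0, and ERCC1 at 1.85 stands apart on the right.

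**Figure D2:**
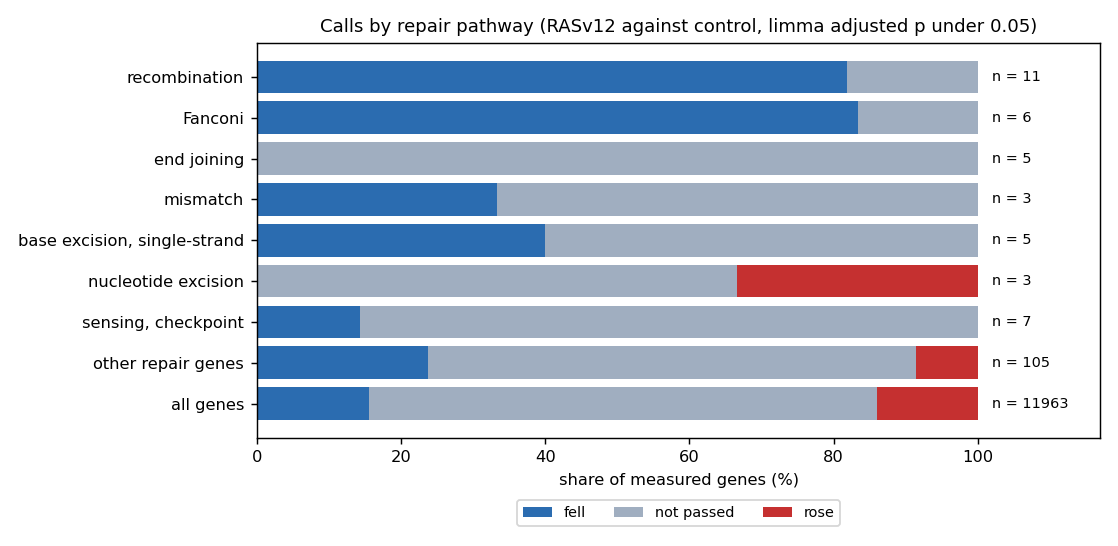
Share of the measured genes of each pathway, in percent, that fell, rose or did not pass in RASv12 cells against control cells, with the same for the wider list of repair genes and for all 11963 genes. Falls make up 81.8% of recombination and 83.3% of Fanconi genes, against 15.5% of all genes.

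The groups did not overlap in deposited intensity, before normalization, for 26 of the 40 genes, against 41.7% of all genes. Of the 18 genes that fell, 12 were not above background in RASv12 cells while they were in control cells; this held for 21.6% of the 1860 fallen genes of the whole array, for 5.00% of all genes and for 8.52% of those above background in control cells. RAD54L and XRCC3 were not above background in either group, as were 36.3% of all genes. For those 12 only a lower bound of the fold can be given, and the log2 change depends strongly on the added constant. Such bounds set the mean of the control samples against the background level, or against the sample's own signal where that was higher.

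The promoters of these genes are shown next because many of the genes moved together and because the E2F factors, which switch on genes of DNA synthesis as cells enter S phase, are known to bind near the start sites of several recombination genes. RefSeq promoter windows of GRCh38.p14, 250 bases before to 50 bases after a start site, were found for 34 of the 40 genes. The windows were searched on both strands for an E2F element of 7 letters, namely TTCCCGC or TTGGCGC or TTCGCGC or TTGCCGC. Each line below gives the 120 bases before the start site, 5′ to 3′ on the gene's strand, with the E2F letters in capitals. The first 7 genes fell, the next 4 did not pass, and ERCC1 rose. The lines were picked by hand after the matches were known, to show genes with and without a match, so their split is not that of all genes counted further on.
RAD51AP1: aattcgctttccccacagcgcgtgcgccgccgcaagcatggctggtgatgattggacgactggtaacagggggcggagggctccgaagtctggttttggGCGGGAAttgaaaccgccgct
RAD54L: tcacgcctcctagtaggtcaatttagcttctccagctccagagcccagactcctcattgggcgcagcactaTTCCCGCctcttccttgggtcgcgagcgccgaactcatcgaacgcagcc
BLM: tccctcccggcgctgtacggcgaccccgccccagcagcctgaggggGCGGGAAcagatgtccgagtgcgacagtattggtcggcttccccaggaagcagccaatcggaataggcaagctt
FANCG: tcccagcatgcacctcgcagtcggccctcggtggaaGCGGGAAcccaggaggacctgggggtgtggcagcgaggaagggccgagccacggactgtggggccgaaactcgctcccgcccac
FANCL: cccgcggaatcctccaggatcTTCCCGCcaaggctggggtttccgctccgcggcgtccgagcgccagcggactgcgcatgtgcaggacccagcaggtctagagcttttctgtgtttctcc
PARP1: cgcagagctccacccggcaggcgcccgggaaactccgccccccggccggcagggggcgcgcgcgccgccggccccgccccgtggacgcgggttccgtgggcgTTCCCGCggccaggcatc
MRE11: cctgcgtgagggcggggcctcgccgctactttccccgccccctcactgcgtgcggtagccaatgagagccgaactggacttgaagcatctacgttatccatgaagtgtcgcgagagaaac
FANCC: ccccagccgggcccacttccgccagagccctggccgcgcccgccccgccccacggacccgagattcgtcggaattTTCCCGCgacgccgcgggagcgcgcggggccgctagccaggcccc
PMS1: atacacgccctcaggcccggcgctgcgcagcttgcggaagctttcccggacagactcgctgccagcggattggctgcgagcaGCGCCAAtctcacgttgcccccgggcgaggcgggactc
RAD50: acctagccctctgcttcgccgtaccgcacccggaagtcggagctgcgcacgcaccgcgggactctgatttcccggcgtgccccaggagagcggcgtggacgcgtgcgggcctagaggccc
ATR: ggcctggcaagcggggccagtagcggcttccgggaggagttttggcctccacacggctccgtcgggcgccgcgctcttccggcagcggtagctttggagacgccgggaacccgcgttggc
ERCC1: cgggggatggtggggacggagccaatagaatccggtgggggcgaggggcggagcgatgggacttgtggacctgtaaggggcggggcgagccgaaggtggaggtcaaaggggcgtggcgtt

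These stretches lie at chr12:4538770-4538889 on the plus strand (RAD51AP1), chr1:46247568-46247687 plus (RAD54L), chr15:90717226-90717345 plus (BLM), chr9:35079943-35080062 minus (FANCG), chr2:58241326-58241445 minus (FANCL) and chr1:226408094-226408213 minus (PARP1). The other lines are chr11:94493845-94493964 minus (MRE11), chr9:95317710-95317829 minus (FANCC), chr2:189784330-189784449 plus (PMS1), chr5:132556857-132556976 plus (RAD50), chr3:142578734-142578853 minus (ATR) and chr19:45423529-45423648 minus (ERCC1). The capitals read GCGGGAA where the match is on the opposite strand, as in RAD51AP1, BLM and FANCG, and GCGCCAA in PMS1. The first base of the match lay 21 bases before the start site in RAD51AP1, 49 in RAD54L, 74 in BLM, 84 in FANCG, 99 in FANCL, 18 in PARP1, 45 in FANCC and 38 in PMS1. The lines of MRE11, RAD50, ATR and ERCC1 hold no match.

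Of the 16 fallen genes with a window, 15 held the E2F element, and MRE11 was the exception. It was present in 6 of the 17 genes with a window that did not pass, namely FANCC, XRCC6, MSH3, PMS1, XRCC1 and ERCC3. ERCC1 held it in 1 of its 3 windows, 223 bases before that start site. Among the fallen genes, BRCA1 and EXO1 each held it in only 1 of 2 windows. Over all tested genes with a window the element was present in 22.6% of 9563, and over all fallen genes in 28.6% of 1515. These motifs were chosen after the changes were known, a gene with several windows has more chances of a match, and a match is no evidence of binding.

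The longer element with a further T in front (TTTCCCGC or TTTGGCGC or TTTCGCGC or TTTGCCGC), which is contained in the matches above, was present in 4 of the 16 fallen genes and 3 of the 17 that did not pass, against 6.08% of all genes with a window. The cell cycle homology region (TTTGAA or TTCGAA), an element of mitotic promoters, was present in 1 of 16 and 3 of 17, against 17.2%. The CCAAT box was present in 9 of 16 and 10 of 17, against 44.2%. The ETS element CCGGAAG was present in 2 of 16 and 6 of 17, against 17.8%. Both strands were searched for each, and matches on both strands can share letters, as the adjoining ones in UNG and MSH3 do.

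**Figure D3:**
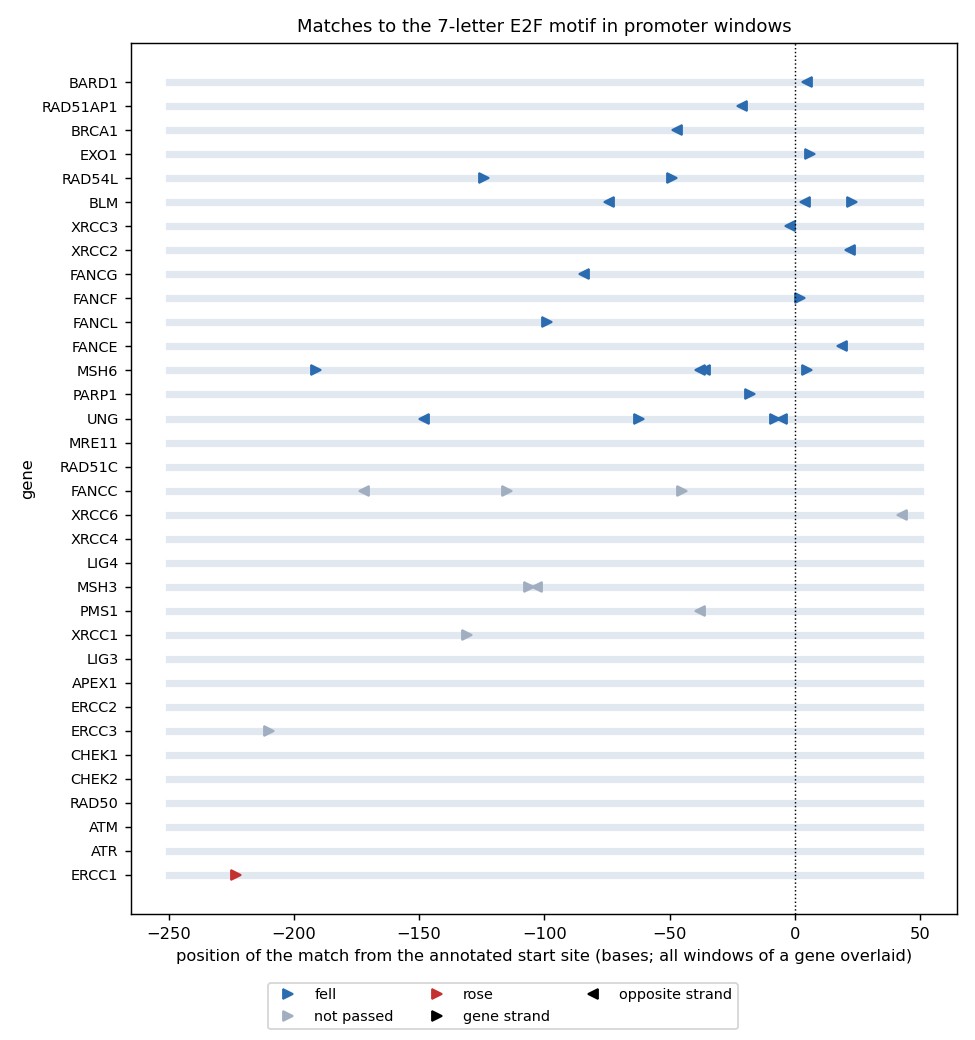
Position of the 7-letter E2F element relative to the start site (bases, horizontal axis, negative before the start) in the promoter windows of the repair genes, 1 line per gene, with the genes grouped by whether they fell, rose or did not pass in RASv12 cells. Of 16 fallen genes 15 have a mark, against 6 of 17 that did not pass.

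The recombination genes are described by role. BRCA1 and BARD1 form a ubiquitin ligase that directs resected breaks to recombination. BARD1 intensity was 6.20, 1.55 and 1.20 in RASv12 samples 1 to 3, against 59.9, 71.2 and 75.4 in control samples 1 to 3. All 3 RASv12 values were under background and all 3 control values above it. The RASv12 cells thus had at least 2.45-fold less BARD1 signal (log2 change -2.11 ± 0.16, adjusted p = 0.00011). BRCA1 intensity was 7.10, 15.8 and 20.7 in RASv12 samples, against 51.9, 41.0 and 50.9 in control samples. BRCA1 was at least 1.70-fold lower (-1.08 ± 0.15, adjusted p = 0.0017), and its other probe set fell too, by 0.64. That other probe set had a mean of 13.6 in RASv12 cells, under background, and limma's adjusted p for it was 0.048.

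RAD51AP1, which promotes strand invasion into the intact duplex, had 5.09, 8.87 and 7.32 in RASv12 samples, against 57.3, 57.3 and 41.2 in control samples. It was at least 1.83-fold lower (-1.52 ± 0.12, adjusted p = 0.00017). The motor protein RAD54B, which remodels DNA during strand exchange, had 13.6, 16.8 and 17.5 in RASv12 samples, against 49.4, 61.7 and 46.3 in control samples, at least 1.86-fold lower (-1.07 ± 0.11, adjusted p = 0.0005). In both genes the RASv12 samples were all under background and the control samples all above it. RAD54L, its paralog, had 5.08, 5.50 and 4.67 in RASv12 samples, against 15.5, 39.9 and 19.0 in control samples. Only control sample 2 exceeded background, so no fold is given for RAD54L. Its adjusted p of 0.020 became 0.060 without RASv12 replicate 2 and 0.062 without RASv12 replicate 3.

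Among XRCC2, XRCC3 and RAD51C, which act in strand exchange, the calls differed. XRCC2 had 11.7, 22.8 and 27.4 in RASv12 samples, against 50.3, 35.5 and 35.0 in control samples, at least 1.42-fold lower (-0.63 ± 0.16, adjusted p = 0.023). The XRCC2 call ended without control replicate 1 (-0.51, adjusted p = 0.066) and when arrays were scaled to the hybridization controls (-0.41, adjusted p = 0.18). XRCC3 was called at 1.23, 2.02 and 3.01 in RASv12 samples against 13.7, 13.0 and 12.3 in control samples, all under background, so no fold is given (adjusted p = 0.0012). RAD51C had 83.8, 83.8 and 61.1 in RASv12 samples against 91.3, 82.3 and 91.0 in control samples. The RAD51C groups overlapped, and its change of -0.13 ± 0.15 did not pass (adjusted p = 0.57).

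The helicases of the RecQ family and the nuclease EXO1 trim and unwind the intermediates. BLM, the helicase mutated in Bloom syndrome, had 24.8, 22.7 and 34.7 in RASv12 samples, against 59.6, 53.5 and 58.5 in control samples. RASv12 sample 3 was above background, and BLM was at least 1.90-fold lower (-0.72 ± 0.11, adjusted p = 0.003). WRN, the helicase mutated in Werner syndrome, had 29.5, 39.1 and 26.1 in RASv12 samples, against 49.7, 27.7 and 36.2 in control samples. The WRN groups overlapped, and its change was -0.15 ± 0.19 (adjusted p = 0.62). EXO1, which resects DNA ends, had 17.2, 14.4 and 8.85 in RASv12 samples, against 47.7, 38.6 and 45.2 in control samples, at least 1.56-fold lower (-0.99 ± 0.16, adjusted p = 0.0041).

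**Figure D4:**
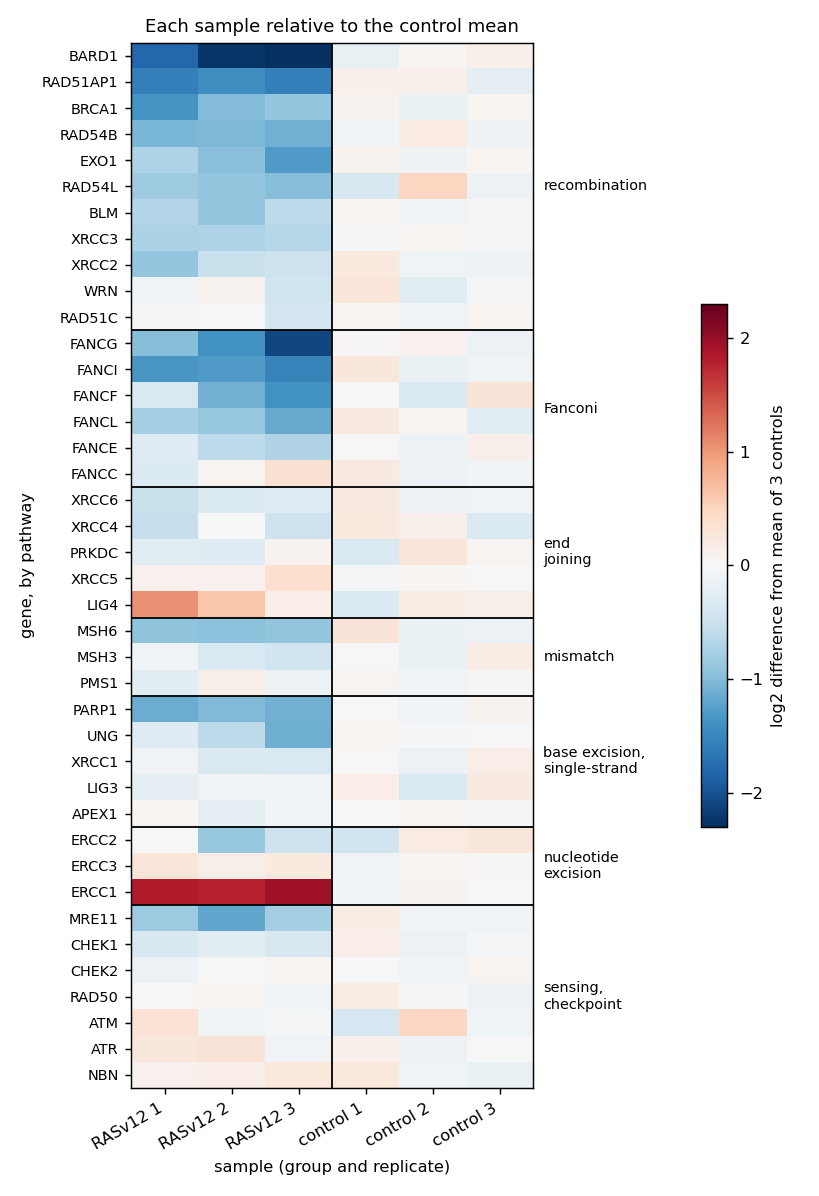
Heat map of normalized log2(intensity + 16) of the 40 repair genes in each sample, coloured by the difference from the mean of the 3 control samples (blue lower, red higher), with RASv12 samples 1 to 3 left of control samples 1 to 3 and genes grouped by pathway. Most recombination and Fanconi genes are below 0 in all 3 RASv12 samples, and ERCC1 is above 0 in all 3.

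The Fanconi genes comprised core complex subunits and a substrate. FANCI, which the pathway ubiquitinates together with FANCD2 to mark a crosslink, stayed above background in both groups on its brightest probe set only. Its intensity was 28.7, 33.6 and 30.3 in RASv12 samples, against 133, 98.0 and 101 in control samples. FANCI was 2.63-fold lower in RASv12 cells (-1.40 ± 0.14, adjusted p = 0.00044). Its other probe set had -2.16, with 1.69, 2.76 and 3.97 in RASv12 samples, all under background, against 73.9, 80.9 and 55.7 in control samples. FANCL, the ubiquitin ligase that carries out the reaction, had 21.5, 22.3 and 17.9 in RASv12 samples, against 66.8, 58.4 and 42.5 in control samples, at least 1.96-fold lower (-0.93 ± 0.16, adjusted p = 0.0052).

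FANCG, a scaffold subunit of the core complex, had 29.5, 21.9 and 8.02 in RASv12 samples, against 87.0, 92.3 and 75.5 in control samples. It was at least 2.97-fold lower (-1.49 ± 0.27, adjusted p = 0.0058), with RASv12 sample 1 above background. FANCF, an adaptor subunit, had 19.3, 7.13 and 3.14 in RASv12 samples, against 34.6, 22.6 and 45.5 in control samples. Its groups did not overlap but lay near each other, and FANCF was at least 1.18-fold lower (-0.95 ± 0.28, adjusted p = 0.044). FANCE, which links the core complex to FANCD2, had 28.1, 23.2 and 24.4 in RASv12 samples, against 44.9, 40.0 and 50.1 in control samples, at least 1.60-fold lower (-0.53 ± 0.13, adjusted p = 0.022). FANCC, another core complex subunit, had 39.7, 59.5 and 81.1 in RASv12 samples, against 73.6, 54.2 and 57.8 in control samples. The groups overlapped for FANCC, and its change was 0.03 ± 0.19 (adjusted p = 0.93). AOPEP, which overlaps FANCC in the annotation, fell (-0.56 ± 0.17, adjusted p = 0.046).

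The calls of FANCE and FANCF were not stable. FANCE was no longer called with scaling to the hybridization controls (-0.33, adjusted p = 0.054), nor FANCF with a pseudocount of 1 (adjusted p = 0.097). FANCF was no longer called without RASv12 replicate 2 (-0.88, adjusted p = 0.13), RASv12 replicate 3 (-0.72, adjusted p = 0.11), control replicate 1 (-0.95, adjusted p = 0.11), control replicate 2 (-1.10, adjusted p = 0.056) or control replicate 3 (-0.80, adjusted p = 0.14). FANCE was no longer called without RASv12 replicate 2 (-0.50, adjusted p = 0.071), RASv12 replicate 3 (-0.47, adjusted p = 0.058), control replicate 1 (-0.54, adjusted p = 0.058) or control replicate 3 (-0.47, adjusted p = 0.080). The count of fallen Fanconi genes was then 3 of 6 without RASv12 replicate 2 or 3 or control replicate 1 or 3. FANCG, FANCI and FANCL kept their calls each time.

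In end joining, XRCC5 and XRCC6 encode the Ku80 and Ku70 proteins that cap a DNA end, PRKDC encodes the kinase they recruit, and XRCC4 and LIG4 seal the ends. No member passed on its brightest probe set. XRCC5 had 1156, 1106 and 1287 in RASv12 samples, against 974, 1039 and 1004 in control samples. Its change was 0.19 ± 0.11 (adjusted p = 0.25) although the groups did not overlap. The other XRCC5 probe set fell by 0.39 (limma's adjusted p = 0.029 over all 22215 probe sets tested), so the direction differed between its probe sets. XRCC6 had 1058, 1165 and 1160.2 in RASv12 samples, against 1682, 1340.1 and 1381 in control samples. The groups did not overlap for XRCC6, and its change of -0.38 ± 0.13 had an adjusted p of 0.060.

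LIG4, the ligase of this pathway, had 73.5, 51.8 and 37.3 in RASv12 samples, against 21.7, 34.6 and 33.7 in control samples. Its change of 0.61 ± 0.25 did not pass (adjusted p = 0.11), but it passed without RASv12 replicate 3 (0.86, adjusted p = 0.029), which lay closest to the control samples. PRKDC had 242, 229 and 302 in RASv12 samples, against 220.2, 348 and 296 in control samples, with overlapping groups and a change of -0.16 ± 0.19 (adjusted p = 0.59). XRCC4 was at -0.34 ± 0.20 (adjusted p = 0.27), with 14.8, 31.4 and 21.9 in RASv12 samples against 41.8, 35.8 and 21.4 in control samples, and these overlapped.

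In mismatch repair, MSH6 and MSH3 act in the recognition of mismatches. MSH6 had 133, 130.3 and 137 in RASv12 samples, against 326, 244 and 240.1 in control samples. The RASv12 samples lay within a narrow range under every control sample, and MSH6 was 1.90-fold lower (-0.92 ± 0.14, adjusted p = 0.0027). Of its other probe sets, 1 fell by 0.62 and 1, under background in both groups, did not pass (0.21). MSH3 was at -0.30 ± 0.14 (adjusted p = 0.16) and PMS1, a MutL homolog, at -0.08 ± 0.12 (adjusted p = 0.69).

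In base excision and single-strand break repair, PARP1 and UNG fell. PARP1, which senses strand breaks and builds poly(ADP-ribose) there, had 100.3, 113 and 109 in RASv12 samples, against 248, 237 and 261 in control samples. It was 2.12-fold lower (-1.08 ± 0.10, adjusted p = 0.00024), well above background in both groups. UNG, the glycosylase that removes uracil, had 46.8, 37.1 and 25.3 in RASv12 samples, against 72.0, 66.9 and 67.4 in control samples. UNG was 1.60-fold lower (-0.67 ± 0.20, adjusted p = 0.044), and RASv12 samples were more spread than control samples. The UNG call ended without RASv12 replicate 2 (-0.71, adjusted p = 0.093), control replicate 1 (-0.65, adjusted p = 0.11), control replicate 2 (-0.68, adjusted p = 0.10) or control replicate 3 (-0.68, adjusted p = 0.11), which left PARP1 alone among the 5. It also ended with scaling to the hybridization controls (-0.46, adjusted p = 0.052) and with a pseudocount of 1 (adjusted p = 0.088).

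The other members of that group did not pass. APEX1, the endonuclease that cuts at the abasic site, had 735, 596 and 631 in RASv12 samples, against 664, 691 and 660 in control samples, with overlapping groups and a change of -0.08 ± 0.10 (adjusted p = 0.64). XRCC1, the scaffold of single-strand break repair, was at -0.26 ± 0.12 (adjusted p = 0.17), and its partner LIG3, a ligase, at -0.13 ± 0.16 (adjusted p = 0.62).

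In nucleotide excision repair, ERCC1 rose. It encodes the partner of ERCC4 in the nuclease that cuts on the 5′ side of a lesion and also acts in crosslink repair. ERCC1, at 45407334 to 45451547 on chromosome 19 (GRCh38.p14), had 908, 846 and 938 in RASv12 samples, against 224, 251 and 232 in control samples. Every RASv12 value exceeded every control value, with means of 897 ± 46.9 and 236 ± 14.0 (SD, n = 3 each). The rise was 1.85 ± 0.10, or 3.61-fold, with adjusted p = 2.5e-05, and 1.23% of all genes rose by at least as much. Its other probe set rose by 1.39. POLR1G, a neighbouring gene that overlaps ERCC1 in the annotation, did not pass (0.16 ± 0.14, adjusted p = 0.44).

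ERCC2 and ERCC3, the helicases of the transcription factor TFIIH that open the DNA around a lesion, did not pass. ERCC3 had 115, 104 and 115 in RASv12 samples, against 91.6, 101 and 98.8 in control samples, with no overlap and a change of 0.22 ± 0.09 (adjusted p = 0.13). ERCC2 had 78.3, 36.9 and 56.1 in RASv12 samples, against 57.3, 99.2 and 103 in control samples. The ERCC2 groups overlapped, and its change was -0.45 ± 0.27 (adjusted p = 0.28).

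Among the sensors of breaks, MRE11 fell while its partners RAD50 and NBN did not pass on their brightest probe sets. MRE11, the nuclease of the complex, had 12.4, 8.52 and 18.8 in RASv12 samples, against 47.5, 35.9 and 36.1 in control samples, at least 1.41-fold lower (-0.94 ± 0.14, adjusted p = 0.003). Its other probe set, under background in both groups, did not pass (0.02). ANKRD49, which overlaps MRE11 in the annotation, fell as well (-0.55 ± 0.10, adjusted p = 0.0056), and whether transcripts of 1 gene bind the other's probe set was not tested. RAD50, the ATPase that bridges the ends, had 110.4, 116 and 108 in RASv12 samples, against 133, 114 and 106 in control samples, and the groups overlapped (-0.02 ± 0.11, adjusted p = 0.91).

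NBN, the subunit that recruits ATM, gave different calls by probe set. Its brightest probe set had 148, 152 and 166 in RASv12 samples, against 164, 131 and 122 in control samples, and did not pass (0.16 ± 0.13, adjusted p = 0.40). Its other 3 probe sets rose, by 0.91, 0.73 and 0.55, with limma's adjusted p = 0.0037, 0.023 and 0.0091 over all 22215 probe sets tested. With the mean of all probe sets NBN was called up at 0.59 (adjusted p = 0.0033).

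The kinases of the checkpoint did not pass on their brightest probe sets. ATM had 125, 85.9 and 95.3 in RASv12 samples, against 73.0, 143 and 91.4 in control samples, with overlapping groups (0.07 ± 0.24, adjusted p = 0.87). ATR had 88.3, 92.4 and 71.2 in RASv12 samples, against 84.6, 68.5 and 77.3 in control samples, and overlapped too (0.16 ± 0.13, adjusted p = 0.44). CHEK1, the kinase downstream of ATR, had 46.1, 53.8 and 52.6 in RASv12 samples, against 80.7, 64.4 and 70.3 in control samples. The CHEK1 groups did not overlap, and its change of -0.32 ± 0.11 had an adjusted p of 0.062, while its other probe set fell by 0.70 (adjusted p = 0.018). On that other probe set the RASv12 samples had 22.7, 21.9 and 17.4, all under background. CHEK2, downstream of ATM, was at -0.03 ± 0.10 (adjusted p = 0.84).

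The choice of probe set mattered for some members. The 40 genes had 64 probe sets, of which 22 fell, 5 rose and 37 did not pass, against 13.6% down and 11.8% up among all named probe sets. Of the 17 genes with several probe sets, 11 had the same verdict on each and 6 did not, and none had probe sets called in both directions. XRCC4, XRCC5, NBN and CHEK1 did not pass on the brightest probe set but had another that was called. For XRCC4 that probe set fell by 0.83 (adjusted p = 0.013) at means of 4.96 in RASv12 cells and 21.6 in control cells, both under background. MRE11 and MSH6 fell on the brightest probe set, but each had another, under background in both groups, that did not pass.

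**Figure D5:**
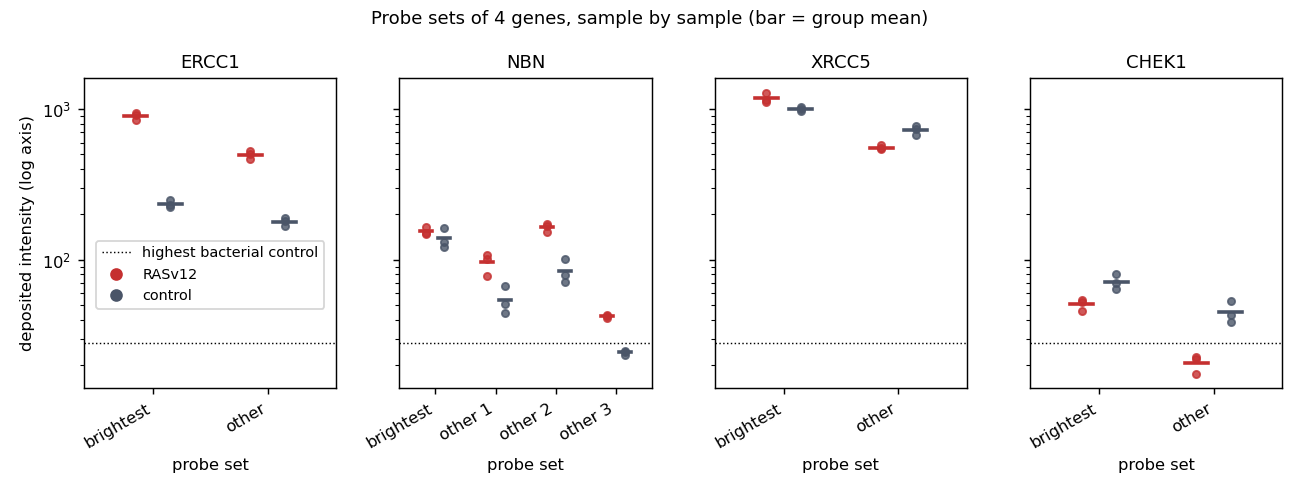
Deposited intensity (log axis) in each sample for every probe set of ERCC1, NBN, XRCC5 and CHEK1, with RASv12 samples left of control samples, a bar at each group's mean and a dotted line at the highest bacterial control. Both ERCC1 probe sets are higher in RASv12 cells, and the 3 NBN probe sets other than the brightest have every RASv12 sample above all control samples.

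A wider list of repair genes was counted in the same pathways, with up to 3 called genes of each named by the size of the moderated t. Of 142 listed, 105 were measured and the others were not analysed here; 25 fell (23.8%), 9 rose and 71 did not pass. Among all 11963 genes 15.5% fell and 14.0% rose, and 24.5% of those above background in control cells fell. Not all of the 105 were in that last class: 16 were not above background in either group, and 2 were above it only in RASv12 cells. The median change of the 105 was -0.22. Of 21 further recombination genes 5 fell and 2 rose. RPA3, a subunit of the protein that coats single-stranded DNA, fell by 1.68, RAD51D, which acts with XRCC2, was at least 2.00-fold lower, and the helicase gene RECQL5 was at least 1.11-fold higher. Of 6 further Fanconi genes 1 fell: USP1, the enzyme that removes ubiquitin from FANCI and FANCD2, fell by 1.67. Of 6 further end joining genes 0 were called by limma, and 4 had an unadjusted p under 0.05. The further recombination and Fanconi genes thus had smaller shares of falls, 23.8% and 16.7%, than the listed ones, a difference that was not tested. In recombination, 8 of the 21 further genes were not above background in either group, against 2 of the 11 listed ones. In the Fanconi pathway this held for 0 of the 6 further and 0 of the 6 listed genes. Among the further genes, the share of falls was larger, 33.3%, in mismatch repair and in sensing and checkpoint. It was 22.2% in nucleotide excision, 13.3% in base excision and 0% in end joining.

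In mismatch repair 2 of 6 further genes fell and 1 rose. PCNA, the sliding clamp that is also among the proliferation genes, fell by 1.27, the polymerase subunit POLD3 was at least 2.85-fold lower, and the MutL homolog MLH3 rose by 0.55. In base excision 2 of 15 fell and 2 rose. The replicative ligase LIG1 was at least 3.36-fold lower and the glycosylase NEIL3 at least 1.32-fold lower, while the glycosylase TDG rose by 0.64. In nucleotide excision 4 of 18 fell and 2 rose, with the TFIIH subunit GTF2H5 (-0.91), the lesion sensor DDB2 (-1.15) and RAD23B (-0.63), which stabilises another sensor, named among the falls.

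In sensing and checkpoint control 8 of 24 further genes fell and 1 rose. CDC25B, a phosphatase that activates cyclin-dependent kinases, fell by 2.31, its relative CDC25C was at least 2.61-fold lower, and H2AX, the histone phosphorylated beside breaks, fell by 1.29. Of 9 genes of direct reversal and translesion synthesis 3 fell and 1 rose. The helicase-like factor HLTF fell by 1.53, the methyltransferase MGMT was at least 1.13-fold lower, and REV1, a translesion polymerase, fell by 0.52.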

How the data were processed

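Transcript levels were read on 6 Affymetrix arrays (A array of the U133 set), 3 from RASv12 and 3 from control WI-38 cells. The labels give 2 rounds of amplification for all 6 samples, and how far this bears on weak signals was not tested. The authors deposited a table of linear intensity values per probe set made with MAS5, per the submitters' processing notes, whose version was not given in the sources used here. The 2% trimmed mean was 100 on each array. Of 22283 probe sets, 68 controls were left out and 19065 of the other 22215 carried 1 symbol (GEO's platform annotation, checked against RefSeq), for 11963 genes. Array medians of the log2 of deposited values plus 16 ran from 5.40 to 5.63, so quantile normalization was applied. Between 48.6% and 54.1% of probe sets per array exceeded the bacterial controls, and r was 0.975 to 0.987 within groups and 0.912 to 0.928 between them. The number of arrays limits the precision.

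Each gene was represented by its probe set with the highest mean intensity over the 6 arrays. Groups were compared with limma 3.58.1 (R 4.3.3), two-sided, with Benjamini-Hochberg adjustment at 0.05; the procedure was tested on simulated data. No dim genes were filtered out. A group whose mean lay at or under 27.98 has only a bound. Every measured member is named; of the wider list, up to 3 called genes per pathway with the largest moderated t are named, and others named were chosen after their values were seen. Members, lists and alternatives were chosen with earlier results of these data known. Sequences are from RefSeq (GRCh38.p14). Alternatives comprised other scalings, pseudocounts of 1 and 32, filters on dim genes, the mean of probe sets, an intensity trend, a replicate block and leaving out each sample.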

Additional observations from a re-analysis of the deposited data

How the results depend on the processing

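No called gene changed direction under the 16 alternatives, and 14 of the 19 called repair genes stayed called wherever they were measured; RAD54L, XRCC2, FANCE, FANCF and UNG did not. All 18 probe sets for hybridization controls had less signal with RASv12 (log2 shift -0.34), and scaling to them moved the median of all genes to 0.20 and the calls to 2827 up and 1053 down, against 1670 up and 1860 down. It gave 6 members up (ERCC1 with XRCC5, LIG4, ERCC3, NBN and ATR) and 15 down, 1 base excision gene down, and medians of -0.77 for recombination, 0.18 for end joining, -0.086 for mismatch repair, -0.046 for base excision, 0.47 for nucleotide excision and 0.24 for sensing and checkpoint. The direction of the end joining and sensing medians thus turned with this scaling, and the median of the sensing genes was also 0.022 without the dimmest 50% of genes. On the values as deposited, 2 sensing genes, MRE11 and CHEK1, fell at a median of -0.062. With a pseudocount of 1 the medians were -1.64 (recombination), -1.56 (Fanconi) and -0.35 (base excision, 1 down). With a pseudocount of 32 the recombination median was -0.58 and 1 end joining gene, XRCC6, fell, as it did with the intensity trend. Without the dimmest 25% the recombination median was -0.94. Without the dimmest 50%, which removed members, 4 recombination genes and 1 end joining gene (XRCC6) fell and 2 members rose (ERCC1 and LIG4). The mean of probe sets gave 2 members up (ERCC1 and NBN), 1 end joining gene (XRCC4) and 2 sensing genes down (MRE11 and CHEK1), and a mismatch repair median of -0.19. Leaving out 1 sample gave 14 to 18 members down, 1 to 2 up, 3 to 5 Fanconi and 1 to 2 base excision genes down, and medians of -0.96 to -0.74 for recombination, -0.34 to -0.18 for base excision and -0.049 to 0.015 for sensing. Deviations of same-numbered samples from their group means had correlations of -0.21, -0.05 and -0.06. Those of differently numbered samples ran from -0.08 to 0.13. With 3 samples a group, these values cannot decide whether the numbers pair the samples. With the replicate number as a block, 14 members fell, with 3 Fanconi genes and 1 base excision gene down, and 1224 genes rose and 1509 fell. Signal over background limits 13 members to a bound and leaves RAD54L and XRCC3 with no fold. The cause of these differences was not tested.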

Other observations

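Within the replication protein A complex, which coats single-stranded DNA during recombination and excision repair, the subunits moved in different directions. These genes were chosen after their values were seen. RPA1 had 134 ± 14.5 in RASv12 cells against 233 ± 18.7 in control cells (SD, n = 3 each), a fall of 0.74 on the log2 scale with limma's adjusted p = 0.0033. RPA2 had 272 ± 38.8 in RASv12 cells against 177 ± 16.7 in control cells, a rise of 0.56 (adjusted p = 0.021). RPA3 had 64.6 ± 9.95 in RASv12 cells against 246 ± 25.7 in control cells (adjusted p = 0.0002). HUS1, a subunit of the checkpoint clamp, rose by 0.80, with 154 ± 15.3 in RASv12 cells against 84.3 ± 8.18 in control cells (adjusted p = 0.0022), while TOPBP1, which activates ATR, fell by 0.63, with 55.4 ± 8.02 in RASv12 cells against 98.5 ± 6.14 in control cells (adjusted p = 0.0084).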
